A study of Mus musculus with 16 samples.

Results

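The chemokine ligands of peritoneal tumor-associated macrophages (TAMs) were followed as a set of 34 genes. These were the secreted CC and CXC chemokines, the membrane-anchored Cxcl16 and Cx3cl1, and the XC chemokine Xcl1. The genes were chosen by name, with earlier results of these data known. They were 34 of the 55604 genes listed. The macrophages came from the peritoneal cavity of C57BL/6 mice bearing ID8 tumors, which grow from injected mouse ovarian cancer cells in the abdomen. Per the study, the mice were female and 6 to 8 weeks old, TAMs were identified by flow cytometry as CD45+CD11b+CD90-B220-Gr1- cells, and the subsets were taken 6 to 7 weeks after inoculation. Its methods describe a density gradient to remove tumor and dead cells, magnetic beads against Tim-4 for Tim-4+ TAMs, and beads against F4/80 to enrich Tim-4- TAMs from the remaining cells. Tim-4, the phosphatidylserine receptor encoded by Timd4, divided them into Tim-4+ and Tim-4- TAMs, and both subsets carried the same tumor and no treatment. There were 4 numbered pairs (793, 784, 783 and 779), each with 1 Tim-4+ and 1 Tim-4- library (n = 4 per subset). The sources used here do not say whether a pair was 1 mouse or a pool. With the pair as a block, p-values therefore measure the spread of the difference between subsets among these 4 pairs. Of the 34 genes, 23 were compared, as part of the 16861 genes that reached 10 counts in 4 or more of the 8 libraries, and 11 were too scarce.

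Chemokines are small proteins that direct the movement of leukocytes by binding G protein-coupled receptors, and they are grouped as CC, CXC, CX3C or XC by the spacing of their first cysteines. Some are induced by inflammatory signals through NF-kappaB or by interferons, and others are made steadily and position cells in tissue. In the peritoneal cavity, resident macrophages and mesothelium are known sources of chemokines, and CXCL13 made there draws B1 cells.

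The stretch before the start site of 6 CXC genes of chromosome 5 is printed to show what genes of a cluster have in common before their start sites. Cxcl1, Cxcl2 and Cxcl3 are neutrophil-attracting genes of 1 cluster, Cxcl9 and Cxcl10 are adjacent interferon-inducible genes, and Cxcl13 had the largest fold change. Each line runs 5′ to 3′ on the gene's own strand over bases -170 to -31 from the start site (RefSeq, GRCm38.p6). Capitals mark the loose form of the NF-kappaB site on either strand, that is GGG and CC with any 5 bases between them. The windows lie at chr5:90891075-90891214 (plus strand) for Cxcl1, chr5:90903729-90903868 (plus) for Cxcl2, chr5:90785931-90786070 (plus) for Cxcl3, chr5:92328110-92328249 (minus) for Cxcl9, chr5:92348920-92349059 (minus) for Cxcl10 and chr5:95956769-95956908 (plus) for Cxcl13.
Cxcl1: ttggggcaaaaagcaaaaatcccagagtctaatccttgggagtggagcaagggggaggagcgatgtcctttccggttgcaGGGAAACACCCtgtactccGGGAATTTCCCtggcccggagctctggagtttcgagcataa
Cxcl2: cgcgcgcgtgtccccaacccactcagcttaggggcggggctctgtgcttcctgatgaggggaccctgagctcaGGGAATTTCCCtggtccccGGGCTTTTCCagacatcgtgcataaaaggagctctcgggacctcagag
Cxcl3: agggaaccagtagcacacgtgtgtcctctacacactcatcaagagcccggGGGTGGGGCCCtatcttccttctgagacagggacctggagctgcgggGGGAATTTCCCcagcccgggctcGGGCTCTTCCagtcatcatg
Cxcl9: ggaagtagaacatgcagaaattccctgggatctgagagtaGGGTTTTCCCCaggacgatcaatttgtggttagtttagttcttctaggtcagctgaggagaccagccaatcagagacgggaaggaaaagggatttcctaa
Cxcl10: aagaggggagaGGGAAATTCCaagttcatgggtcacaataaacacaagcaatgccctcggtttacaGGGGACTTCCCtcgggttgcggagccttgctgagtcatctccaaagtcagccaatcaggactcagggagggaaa
Cxcl13: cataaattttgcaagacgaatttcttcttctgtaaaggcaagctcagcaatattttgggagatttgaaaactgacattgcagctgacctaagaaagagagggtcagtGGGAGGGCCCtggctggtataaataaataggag

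The longest run that the 250 bases before the start sites of Cxcl1, Cxcl2 and Cxcl3 have in common is GGGAATTTCCC, 11 letters that hold the loose form on both strands. It begins at base -71 of Cxcl1, -97 of Cxcl2 and -73 of Cxcl3, was met in none of the other ligand genes with a promoter in the table, and was held by 14 of 32851 promoter stretches of the same length (0.0426%). The loose form was held by 45.8% of all promoters and by 12 of the 24 ligand genes that have a promoter in the table. The letters of an interferon-stimulated response element (GAAA, any 2 bases, GAAA, either strand) were in 2.98% of all promoters and in those of Cxcl10, Cxcl14 and Ccl19. TTCNNNGAA, the letters of a STAT site, were in 7.02% and in those of Cxcl14 and Ccl17. These are matches of letters and not measured binding.

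Before the ligands were compared, the libraries were set against their labels. Timd4 was at 524 to 1743 CPM (counts scaled to library size, with TMM factors) in Tim-4+ TAMs and 1.96 to 84.9 CPM in Tim-4- TAMs, with the highest Tim-4- value in pair 793. That library was also the highest Tim-4- library for Ccl2, Ccl3, Ccl6, Ccl9, Cxcl1, Cxcl2, Cxcl12 and Pf4. The other compared ligands were highest in other Tim-4- libraries, among them Cxcl13 and Ccl22 (pair 784) and Ccl24 (pair 779). The 8 macrophage markers summed to 43257 to 55691 CPM in Tim-4+ TAMs and 20867 to 33357 CPM in Tim-4- TAMs. Most of that sum was Lyz2, at a mean of 39771 against 21166 CPM. Of the 8 markers, 5 were called higher in Tim-4+ TAMs, where 8.97% of all genes tested were. Mrc1 was called lower (log2 fold change -1.09), and Csf1r and Fcgr1 were not called. All 10 mesothelial and epithelial markers were called lower in Tim-4+ TAMs, where 8.43% of all genes tested were. Their sum was 113 to 403 CPM in Tim-4+ TAMs against 455 to 2196 CPM in Tim-4- TAMs. Fibroblast markers summed to 19.5 to 90.3 against 49.9 to 173 CPM, and mast cell markers to 3.55 to 16.0 against 20.04 to 65.0 CPM. Summed markers of neutrophils (at most 4.18 CPM), eosinophils (at most 0.651), T and NK cells (at most 3.11), B cells (at most 18.9), dendritic cells (at most 30.7) and endothelium (at most 9.82) were low in all libraries. Whether the RNA of these other cells had a part in the results was not tested. In such bulk samples, fewer cells that make a chemokine and less of its RNA per cell cannot be told apart.

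The 23 ligands were detected in both subsets, and the level of 13 of them differed. Higher in Tim-4+ TAMs were the B cell attractant Cxcl13, Cxcl12, Pf4, the neutrophil attractants Cxcl1 and Cxcl2, and the CC ligands Ccl3, Ccl22 and Ccl24. Lower in Tim-4+ TAMs were the CC ligands Ccl8 and Ccl12, the interferon-inducible Cxcl9 and both membrane-anchored ligands, Cx3cl1 and Cxcl16. Of the 23 genes compared, 13 (56.5%) were called at an adjusted p under 0.05 by edgeR's quasi-likelihood test with the pair as a block, where 17.4% of all genes tested were called. The 8 called higher stand against 8.97% of all genes, and the 5 called lower against 8.43%. All 13 went the same way in 4 of 4 pairs. A test with the pair as a block favors such genes, so the agreement is no further support. Ccl9, which was not called, also went the same way in every pair. With a change of at least 2-fold also required, 8 were higher and 2 lower (3.8% and 5.79% of all genes, 9.59% together). The median log2 fold change was -0.03 for the 23 and -0.001 for all genes. Of the compared genes, 22 had at least 10 counts in all 8 libraries and Ccl8 in 7, so none passed the filter through 1 subset alone.

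**Figure D1:**
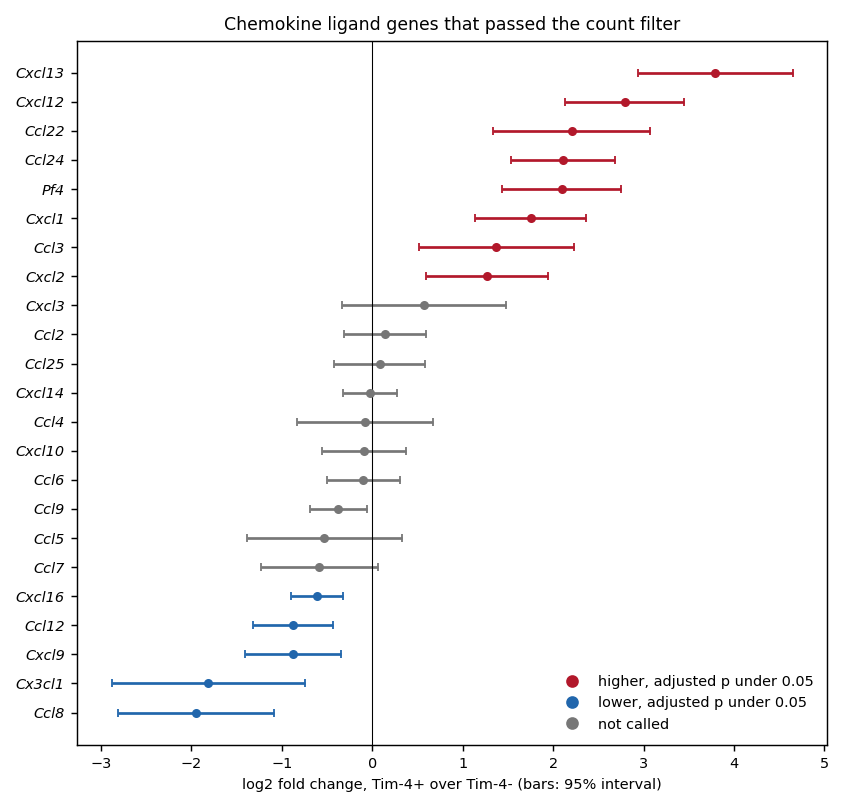
Log2 fold change (Tim-4+ over Tim-4-, horizontal axis) of the 23 chemokine ligand genes compared, with the 95% interval of the paired edgeR fit, not adjusted for the number of genes. The 8 genes called higher lie between 1.27 and 3.79, the 5 called lower between -1.95 and -0.61, and the intervals of 9 of the 10 others include 0, that of Ccl9 being the exception.

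Most of these calls depended on the pair block. Without the pair block only Cxcl13 (adjusted p = 0.0297) and Pf4 (adjusted p = 0.0472) were called, where 1.38% of all genes were, and for the other 11 the adjusted p lay between 0.0839 (Ccl22) and 0.749 (Cxcl9). These were also the only genes called higher whose Tim-4+ and Tim-4- libraries did not overlap. Such separation was met in 12.8% of all genes tested, and with Tim-4+ above in 6.84%. When libraries were scaled by total counts alone, the median of all genes moved to -0.36, and 7 ligands were called higher and 7 lower (50% higher, against 61.5%). Cxcl12, Cxcl13 and Ccl24 were called with each pair left out in turn. Without pair 784 only 78 genes were called higher and 54 lower over all genes, against 1512 and 1421 with all pairs. A call lost there therefore does not by itself show a smaller difference.

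Compared per kilobase of exon, the order of the ligands differed between subsets. In Tim-4+ TAMs the highest were Cxcl13 (mean 2021 CPM per kb), Cxcl2 (1291), Pf4 (967), Ccl6 (560.3) and Ccl3 (494). In Tim-4- TAMs they were Ccl6 (616), Cxcl2 (584), Pf4 (232), Ccl3 (199) and Ccl9 (198), and Cxcl13 was seventh at 153 CPM per kb. As a share of all counts on chemokine ligands, Cxcl13 took 26.0% ± 10.7 of the Tim-4+ counts and 4.49% ± 2.94 of the Tim-4- counts (SD, n = 4), while Ccl6 took 11.7% ± 3.30 and 25.8% ± 6.38. Together the 34 genes held 0.557 to 0.951% of the counts of a Tim-4+ library and 0.359 to 0.651% of a Tim-4- library.

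**Figure D2:**
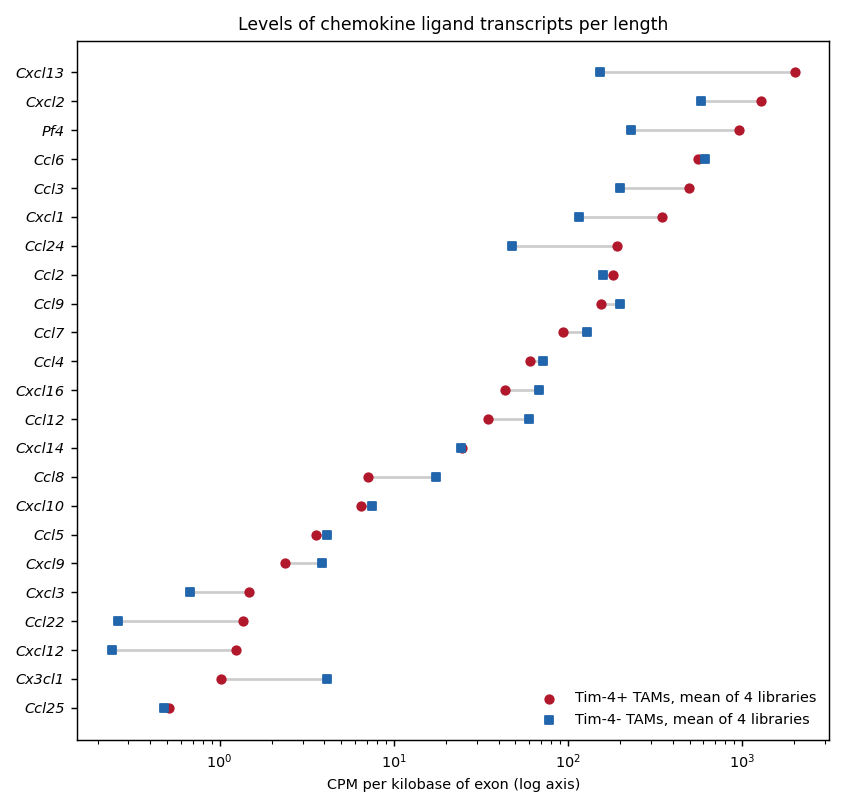
Mean level of each compared chemokine ligand in Tim-4+ TAMs (circles) and Tim-4- TAMs (squares), in CPM per kilobase of exon on a log axis, 4 libraries each. Genes are ordered by the Tim-4+ level, from Ccl25 at 0.510 to Cxcl13 at 2021, and Cxcl13 has the widest gap between subsets.

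Cxcl13, the ligand of CXCR5 that attracts B cells, showed the largest difference of the set. Its level was 1425, 4115, 1927 and 1832 CPM in the Tim-4+ libraries of pairs 793, 784, 783 and 779, and 192, 275, 179 and 58.5 CPM in the Tim-4- libraries of the same pairs. The lowest Tim-4+ library was above every Tim-4- library. The fitted difference was 13.8-fold (log2 fold change 3.79, SE 0.36, adjusted p = 0.00464), and the ratio was smallest in pair 793 (log2 2.89) and largest in pair 779 (log2 4.97). The gene lies at chr5:95956951-95961068 on the plus strand, and none of its 50-base stretches occurred in another annotated transcript.

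Cxcl12, the homeostatic ligand of CXCR4 and of the scavenging receptor ACKR3, was far less abundant but had the second largest difference. In the same order of pairs it was at 20.2, 3.78, 3.42 and 13.4 CPM in Tim-4+ TAMs and at 4.93, 0.355, 0.331 and 2.24 CPM in Tim-4- TAMs. Pairs 793 and 779 were high in both subsets and pairs 784 and 783 low in both, so the subsets overlapped although each pair showed the same direction. The log2 fold change was 2.79 (SE 0.28, adjusted p = 0.00395), or 6.91-fold. Cxcl14, a constitutive CXC chemokine, ranged from 30.7 to 72.2 CPM in Tim-4+ TAMs (33.4, 43.5, 72.2 and 30.7) and from 31.4 to 61.4 CPM in Tim-4- TAMs (45.1, 39.9, 61.4 and 31.4). A log2 fold change of -0.03 had a 95% interval of -0.33 to 0.28.

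Of the CXC chemokines that attract neutrophils through CXCR2, Cxcl1 and Cxcl2 were higher in Tim-4+ TAMs. Cxcl2 was the most abundant of them and stood at 2489, 2783, 1212 and 4197 CPM in Tim-4+ TAMs against 2249, 782, 451 and 1348 CPM in Tim-4- TAMs. Cxcl1 stood at 756, 408, 153 and 1291 CPM against 456, 92.9, 40.8 and 283 CPM. Both were higher in the Tim-4+ library of every pair, with pair 783 lowest in either subset, but the difference in pair 793 was small (log2 ratios of 0.15 for Cxcl2 and 0.73 for Cxcl1, against 1.43 to 1.83 and 1.91 to 2.19 in the other pairs). The log2 fold changes were 1.27 for Cxcl2 (SE 0.29, adjusted p = 0.0266) and 1.75 for Cxcl1 (SE 0.26, adjusted p = 0.00985). Cxcl2 was not called without pair 784 (adjusted p = 0.134), without pair 779 (0.115) or by DESeq2 (0.138). Cxcl1 was not called without pair 784 (0.0705) or pair 779 (0.0515).

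Cxcl3, the gene of the same cluster with the same 11 letters before its start site, was scarcer, at 4.10, 13.5, 0.183 and 2.77 CPM in Tim-4+ TAMs and 2.37, 4.30, 0.344 and 2.41 CPM in Tim-4- TAMs. It was higher in 3 of 4 pairs and was not called (log2 fold change 0.57, 95% interval -0.34 to 1.47, adjusted p = 0.352). That interval includes the value of Cxcl2, and a difference between the genes was not tested. Cxcl2 and Cxcl3 are close copies in part: 5.84% of the 50-base stretches of Cxcl2 occur in another gene's transcript, and Cxcl3 is that gene, so a small share of their reads is uncertain. Cxcl5 was too scarce, with 20 counts in all libraries, and so was the lung-expressed Cxcl15, with 1.

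Pf4, platelet factor 4, a CXC chemokine stored in platelets that macrophages also make, was at 950.2, 823, 360 and 658 CPM in Tim-4+ TAMs and at 295, 114, 146 and 113 CPM in Tim-4- TAMs. The subsets did not overlap. The difference was 4.27-fold (log2 fold change 2.10, SE 0.28, adjusted p = 0.00855), and it was not called without pair 784 (adjusted p = 0.0563, log2 fold change 1.84). Ppbp, the other platelet chemokine, which lies 2.37 kb away, had no more than 10 counts in any library. The platelet and megakaryocyte markers Gp1bb and Treml1 had 0 counts in all 8 libraries. Of the 11 such markers 4 could be compared, and 1, the lectin receptor Clec1b, was called higher in Tim-4+ TAMs (log2 fold change 3.38, adjusted p = 0.00354). The sum of the 11 ranged from 11.3 to 18.1 CPM in Tim-4+ TAMs and from 8.54 to 19.7 CPM in Tim-4- TAMs.

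**Figure D3:**
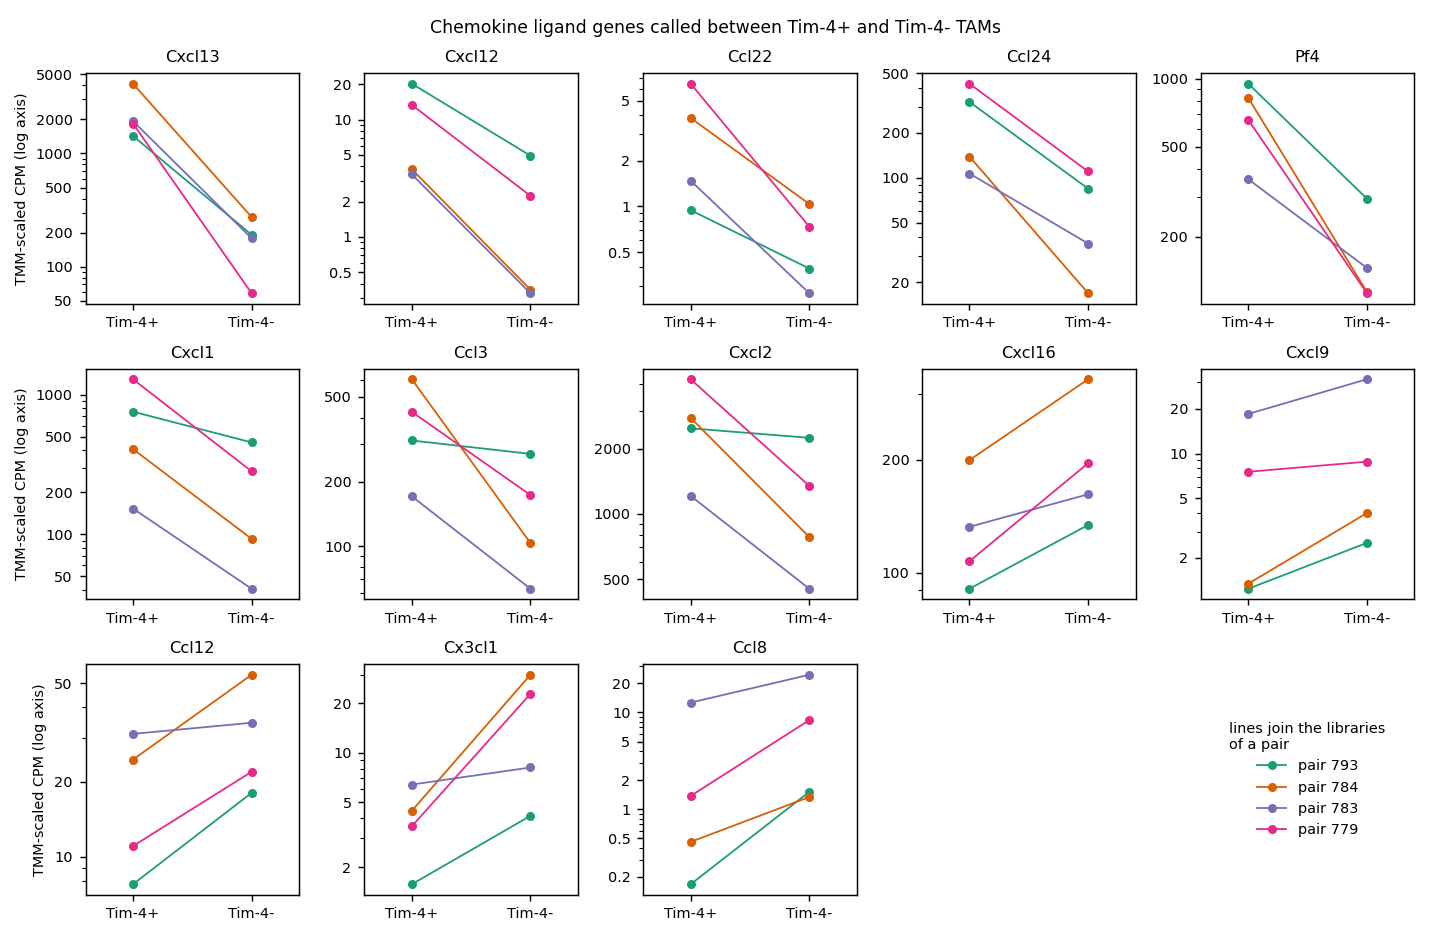
TMM-scaled CPM (log axis, scaled separately for each gene) of the 13 chemokine ligand genes called, in Tim-4+ and Tim-4- TAMs. Each line joins the libraries of 1 pair, and every line falls to the right for the 8 genes from Cxcl13 to Cxcl2 and rises for the 5 from Cxcl16 to Ccl8.

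The interferon-inducible ligands of CXCR3, which attract activated T and NK cells, were low in both subsets. Cxcl9 was at 1.24, 1.34, 18.5 and 7.55 CPM in Tim-4+ TAMs and 2.52, 3.99, 31.5 and 8.82 CPM in Tim-4- TAMs. Pair 783 was the highest in both subsets, and the subsets overlapped. A log2 fold change of -0.88 was fitted (SE 0.23, adjusted p = 0.0377). The call was lost without pair 793 (adjusted p = 0.122), pair 784 (0.129) or pair 783 (0.0651) and with lane 2 alone (0.0553). Cxcl10 was at 14.5, 14.7, 7.38 and 21.7 CPM in Tim-4+ TAMs against 12, 25.6, 5.99 and 23.7 CPM, higher in 2 pairs and lower in 2. The log2 fold change was -0.09 (95% interval -0.56 to 0.38), and pair 783, the highest for Cxcl9, was the lowest for Cxcl10 in both subsets. The third gene of the group, Cxcl11, was too scarce, with 12 counts in all, 9 of them in the Tim-4- library of pair 783, and 40.4% of its 50-base stretches are shared with other genes, among them one on the opposite strand.

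The CC chemokines that attract monocytes, most of them through CCR2, were either not called (Ccl2 and Ccl7) or lower in Tim-4+ TAMs (Ccl12 and Ccl8). Ccl2, the principal monocyte attractant, was at 157, 206, 290 and 169 CPM in Tim-4+ TAMs and at 207, 156, 174 and 192 CPM in Tim-4- TAMs. It was higher in 2 pairs and lower in 2, with a log2 fold change of 0.14 (95% interval -0.32 to 0.60), and scaling by total counts alone turned it to -0.22. Ccl7 was at 38.3, 80.0, 126 and 55.6 CPM against 80.7, 116, 93.0 and 122 CPM, lower in every pair but 783. With all pairs it was not called (log2 fold change -0.59, adjusted p = 0.182), whereas without pair 783 it was (-0.92, adjusted p = 0.00228).

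Ccl12, a mouse ligand of CCR2, was at 7.73, 24.6, 31.2 and 11.02 CPM in Tim-4+ TAMs and 18.1, 54.1, 34.6 and 21.97 CPM in Tim-4- TAMs. Each pair was lower in Tim-4+ TAMs, by little in pair 783. The log2 fold change was -0.88 (SE 0.19, adjusted p = 0.0228), and it was not called without pair 793 (0.0898), pair 784 (0.12) or pair 779 (0.0961). Ccl8, which in mice acts through CCR8, was the ligand with the greatest spread between pairs, at 0.168, 0.460, 12.6 and 1.37 CPM in Tim-4+ TAMs and 1.51, 1.34, 24.5 and 8.33 CPM in Tim-4- TAMs. Counts behind these values ran from 8 to 692 and from 98 to 1923. The log2 fold change was -1.95 (SE 0.37, adjusted p = 0.016), or 3.87-fold lower in Tim-4+ TAMs, and it was not called without pair 784 (0.0813) or pair 779 (0.0736).

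Of Ccl3, Ccl4 and Ccl5, inflammatory CC chemokines that attract T cells and macrophages, only Ccl3 was called. Ccl3 was at 312, 605, 171 and 426 CPM in Tim-4+ TAMs and 270, 103, 63.1 and 173 CPM in Tim-4- TAMs, higher in every pair, with a log2 ratio of 0.21 in pair 793 and 2.55 in pair 784. Its log2 fold change was 1.37 (SE 0.36, adjusted p = 0.045), and the call was lost without pair 784 (0.107), without pair 779 (0.137), with no count filter (0.257) and under total counts (0.056). Ccl4, which lies 13.2 kb from Ccl3, was at 40.8, 50.8, 30.2 and 39.0 CPM against 68.8, 28.4, 21.9 and 70.6 CPM. It was higher in pairs 784 and 783 and lower in pairs 793 and 779, and the fitted difference was -0.08 (95% interval -0.83 to 0.67). That interval overlaps the interval of Ccl3 (0.52 to 2.23), and a difference between the genes was not tested. Ccl5 was scarce at 0.609 to 6.74 CPM in Tim-4+ TAMs and 2.38 to 5.81 CPM in Tim-4- TAMs, and it was not called (log2 fold change -0.53, 95% interval -1.39 to 0.33).

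Ccl6 and Ccl9, mouse ligands of CCR1 that myeloid cells make constitutively, were abundant in both subsets. Ccl6 was at 1222, 912, 860 and 1030 CPM in Tim-4+ TAMs and 1400, 670, 1090 and 1263 CPM in Tim-4- TAMs, a difference of -0.10 on the log2 scale (95% interval -0.50 to 0.30). Ccl9 was at 525, 530, 352 and 473 CPM against 649, 586, 553 and 623 CPM. Every Tim-4+ library lay below every Tim-4- library, as in 5.92% of all genes tested, but the difference was small (log2 fold change -0.38, SE 0.14) and was not called (adjusted p = 0.0938). DESeq2 called Ccl9 (adjusted p = 0.0284), and under total counts both were called lower (Ccl6 at -0.46 and Ccl9 at -0.73).

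Of the CC ligands linked to alternative activation and allergic inflammation, Ccl24 and Ccl22 were higher in Tim-4+ TAMs. Ccl24, an eotaxin that attracts eosinophils through CCR3, was at 322, 139, 107 and 426 CPM in Tim-4+ TAMs and 84.6, 16.9, 36.3 and 110 CPM in Tim-4- TAMs. The difference was 4.32-fold (log2 fold change 2.11, SE 0.24, adjusted p = 0.00667), with pairs 793 and 779 high in both subsets. Ccl22, a ligand of CCR4 on regulatory and helper T cells, was scarce, at 0.945, 3.84, 1.48 and 6.47 CPM against 0.390, 1.04, 0.268 and 0.737 CPM, from 21 to 311 counts. The difference was 4.61-fold (log2 SE 0.37, adjusted p = 0.0114), and it was not called without pair 784 (0.0711). Ccl17, the other ligand of CCR4, was too scarce, and 31 of its 55 counts were in the Tim-4+ library of pair 784. Ccl11, the other eotaxin, had 5 counts, all in Tim-4- TAMs.

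The membrane-anchored chemokines Cx3cl1 and Cxcl16, which are shed by the proteases ADAM10 and ADAM17, were both lower in Tim-4+ TAMs. Cx3cl1, or fractalkine, was at 1.58, 4.42, 6.39 and 3.56 CPM in Tim-4+ TAMs and 4.12, 29.9, 8.13 and 22.8 CPM in Tim-4- TAMs. The Tim-4- libraries of pairs 784 and 779 were far above the others, and in the remaining pairs the subsets were closer. The log2 fold change was -1.81 (SE 0.45, adjusted p = 0.0388), and the call was lost without pair 793 (0.1), pair 784 (0.144) or pair 779 (0.14) and with no count filter (0.198). The summed mesothelial and epithelial markers were highest in the same Tim-4- libraries, at 1397 CPM in pair 784 and 2196 CPM in pair 779 against 455 in pair 793 and 906 in pair 783, and their part in the Cx3cl1 values was not tested.

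Cxcl16, the ligand of CXCR6 and a scavenger receptor for oxidized lipoprotein, was at 90.5, 200, 133 and 107 CPM in Tim-4+ TAMs and 134, 329, 162 and 196 CPM in Tim-4- TAMs. The fitted log2 fold change of -0.61 was the smallest in size of those called, with an SE of 0.13 (adjusted p = 0.0183). It was not called without pair 793 (0.0642), pair 784 (0.092) or pair 779 (0.0703). The transcript overlaps Zmynd15 on the opposite strand, 16.9% of its 50-base stretches being shared, and whether reads were counted by strand is not given in the sources used here. Adam10 (log2 fold change -0.09, adjusted p = 0.638) and Adam17 (0.12, adjusted p = 0.568) were not called.

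**Figure D4:**
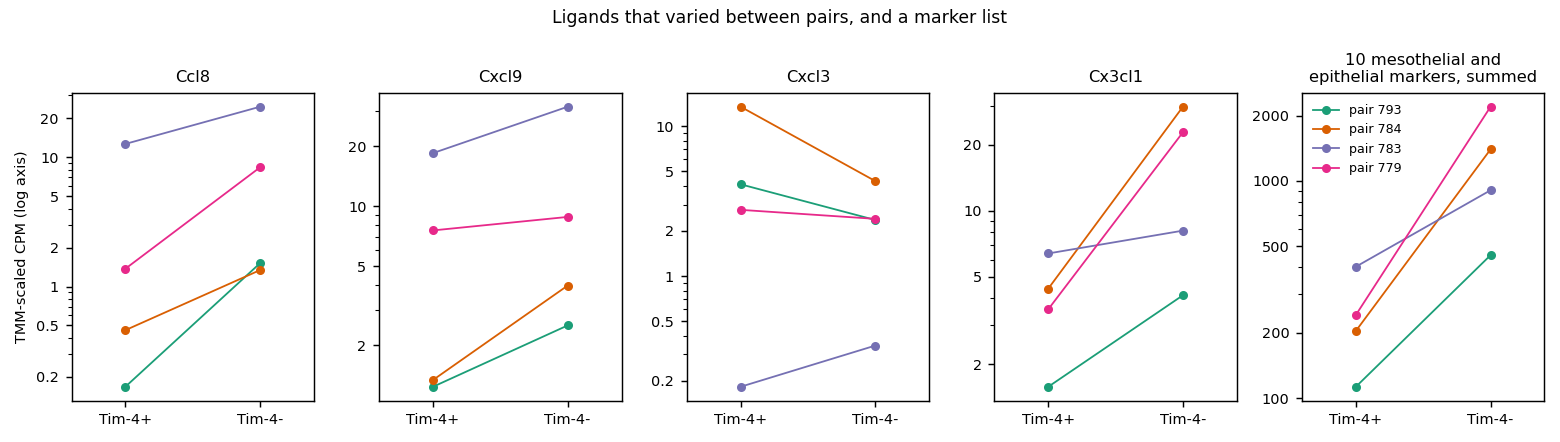
TMM-scaled CPM (log axes, 1 scale per panel) of Ccl8, Cxcl9, Cxcl3 and Cx3cl1 and the summed CPM of 10 mesothelial and epithelial markers, each line joining the Tim-4+ and Tim-4- libraries of 1 pair. Pair 783 is highest for Ccl8 and Cxcl9 and lowest for Cxcl3 in both subsets, and the Tim-4- libraries of pairs 784 and 779 are highest for both Cx3cl1 and the markers.

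The level of many ligands depended on the pair as well as on the subset. Ccl8 spanned 75.3-fold between its lowest and highest Tim-4+ library and 18.3-fold between Tim-4- libraries. Cxcl9 spanned 14.9-fold and 12.5-fold, Cxcl3 73.8-fold and 12.5-fold, and Cxcl12 5.93-fold and 14.9-fold. At the other end, Ccl6 spanned 1.42-fold and 2.09-fold and Ccl9 1.504-fold and 1.17-fold. A test of the pair term in the same edgeR fit, added after the data were seen, called 10 of the 23 genes at an adjusted p under 0.05, where 11.5% of all genes tested were called. These were Cxcl9 (adjusted p = 0.00306), Ccl8 (0.00515), Cxcl12 (0.00668), Cxcl1 (0.0108), Cxcl3 (0.0139), Cxcl16 (0.0163), Ccl12 (0.018), Ccl24 (0.0205), Cxcl10 (0.0258) and Cxcl14 (0.0266). Cxcl13 (0.17) and Pf4 (0.181) were not among them. What the libraries of a pair share beyond their number is not given in the sources used here.

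Most of the ligand genes lie in clusters on GRCm38, and neighbors often differed in their calls. Differences between genes were not tested. On chromosome 11, Ccl2, Ccl7, Ccl11, Ccl12 and Ccl8 lie in that order between 82035571 and 82116799, with log2 fold changes of 0.14 and -0.59 for the first genes and -0.88 and -1.95 for the last. Further along, Ccl5, Ccl9, Ccl6, Ccl3 and Ccl4 lie between 83525778 and 83664683, where Ccl3 was the only one called, while the genes on either side of it, Ccl6 and Ccl4, differed by -0.10 and -0.08. On chromosome 5, Cxcl5, Ppbp, Pf4, Cxcl3, Cxcl15, Cxcl1 and Cxcl2 lie between 90759360 and 90905938. The genes called there, Pf4, Cxcl1 and Cxcl2, were all higher in Tim-4+ TAMs. On chromosome 8, Ccl22, which was higher in Tim-4+ TAMs, ends 20.3 kb before Cx3cl1, which was lower, and Ccl17 follows 28.0 kb after that.

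**Figure D5:**
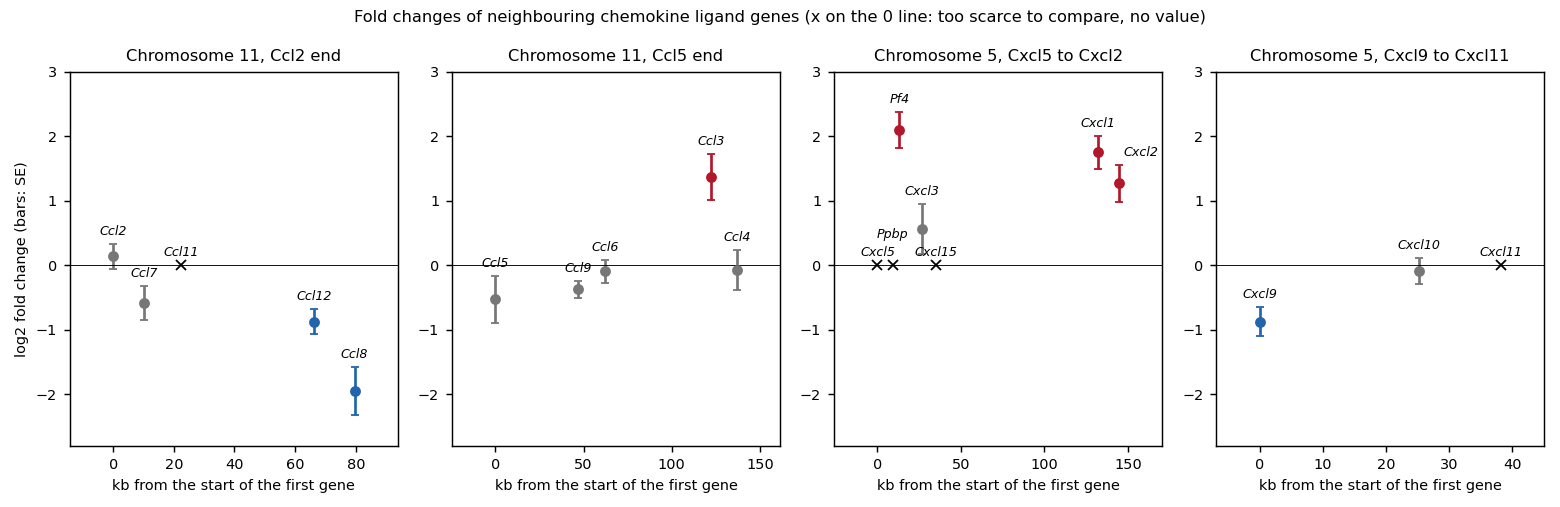
Log2 fold change (vertical axis, bars are SE of the paired fit) of chemokine ligand genes against distance in kilobases from the start of the first gene of each cluster, for 2 clusters of chromosome 11 and 2 of chromosome 5. Red genes were called higher and blue genes lower in Tim-4+ TAMs, gray genes were not called, and crosses mark genes too scarce to have a value. Ccl3 is the only gene called in its cluster, and Ccl12 and Ccl8 lie together at the low end.

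Ccl25, the gut and thymus ligand of CCR9, passed the count filter at 2.80 to 4.38 CPM in Tim-4+ TAMs and 3.06 to 4.76 CPM in Tim-4- TAMs and was not called (log2 fold change 0.08, 95% interval -0.42 to 0.58). It overlaps Elavl1 on the opposite strand (2.06% of its 50-base stretches are shared). Besides Ccl11, Ccl17, Cxcl5, Cxcl11, Cxcl15 and Ppbp, the scarce genes were Ccl19, Ccl20, Ccl28, Cxcl17 and Xcl1. Ccl20, which attracts CCR6+ cells to epithelium, had 31 counts in the Tim-4- library of pair 784 and 16 in that of pair 779, the libraries highest in epithelial and mesothelial markers, and 0 in the other libraries. Ccl28 had 68 counts in all, Cxcl17 had 60, of which 34 were in the Tim-4- library of pair 779, and Xcl1 had 21. Ccl19, the CCR7 ligand of lymphoid tissue, had 0 counts in all 8 libraries. A count of 0 allows up to 3 counts, or 0.0382 to 0.0630 CPM by library, by counting error alone, and 52% of the 50-base stretches of Ccl19 occur in other genes, so any read from these stretches could have been set aside as not unique.

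Among the receptors for these ligands, 16 of 23 could be compared, of which 3 were called higher (8.97% of all genes were). The monocyte receptor Ccr2 was lower in Tim-4+ TAMs, at 5.94 to 16.0 CPM against 115 to 142 CPM (log2 fold change -3.61, SE 0.21, adjusted p = 0.000829). Its ligands Ccl2 and Ccl7 were not called and Ccl12 was lower. Cx3cr1, the receptor of Cx3cl1, was also lower (log2 fold change -1.89, adjusted p = 0.00434). Higher were Ackr3, which takes up CXCL12 (mean 182 ± 65.1 CPM against 35.03 ± 27.5 CPM, SD, n = 4, log2 fold change 2.59, adjusted p = 0.00667), Ccrl2, which binds the chemoattractant chemerin (1.41, adjusted p = 0.0202), and Ccr1 (0.51, adjusted p = 0.0391). Cxcr4, the signaling receptor of CXCL12, was not called (0.75, adjusted p = 0.0958). Cxcr5, the receptor of CXCL13, was near the lower limit at a mean of 0.580 and 0.566 CPM, and Cxcr2 was too scarce. Without pair 784, none of the 3 receptor genes called higher was called (adjusted p = 0.0549 for Ackr3, 0.103 for Ccrl2 and 0.153 for Ccr1). Ccr1 was also not called without pair 783 (0.0727), without pair 779 (0.143) or under total counts (0.282). Ccrl2 was also not called without pair 779 (0.0962). Without the block only Ccr2 was called.

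Calls among the other genes of the pathway were about as frequent as the 17.4% over all genes. They were 25% of the proteases, 23.5% of the transcription regulators and 16.7% of the inducing cytokines and receptors. Of 8 chemokine-processing proteases compared, Mmp14 was lower (log2 fold change -1.32, adjusted p = 0.00875, 0.0598 without pair 784). Mmp8 was higher (2.73, adjusted p = 0.0477), at a mean of only 0.579 CPM in Tim-4+ TAMs. Mmp8 reached 10 counts in only 4 libraries. It was not called without pair 793 (0.0918) and was not compared with any other pair left out. Neither gene was called without the block (adjusted p = 0.567 for Mmp14 and 0.309 for Mmp8). Of 17 transcription regulators of chemokine genes, 3 were called higher (8.97% of all genes were). These were Irf7 (1.13, adjusted p = 0.00637), the NF-kappaB cofactor gene Nfkbiz (1.02, adjusted p = 0.0211) and Rel (0.62, adjusted p = 0.0423). None of the 3 was called without the block (adjusted p = 0.32, 0.286 and 0.402). Rel was not called when any of the pairs was left out (adjusted p from 0.0512 to 0.103), Nfkbiz was not called without pair 784 (0.118) or pair 779 (0.084), and Irf7 was not without pair 784 (0.0514). Of 12 inducing cytokines and receptors compared, Il1a (2.10, adjusted p = 0.00533) and the interferon receptor chain Ifnar2 (0.89, adjusted p = 0.00875) were higher, none was lower, and neither of these was called without pair 784 (0.0549 and 0.0623). Ifng, the inducer of Cxcl9, had at most 3 counts in a library.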

How the data were processed

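RNA of 8 libraries was sequenced in 2 lanes each, paired-end with 50 cycles. Per lane and gene, the authors deposited the number of reads as raw counts. The submitters' processing notes name FastQC 0.11.3, TopHat2 2.0.13, Cufflinks, Cuffdiff 2.2.1 and GRCm38, while the study's text names hg19. The read counter and whether it used strand are not given in the sources used here. Lines naming no gene (18.9 to 32.9% of a lane's reads) were left out. Of 16 lanes, 15 list Ensembl identifiers and 1 lists symbols. It was joined by order, and 96.9% of 53618 symbols compared, including those of all 34 ligands, were equal at the same place. Lanes were summed, giving 53527928 to 57768202 counts per Tim-4+ library and 55618306 to 69594245 per Tim-4- library.

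Genes that reached 10 counts in 4 or more libraries were tested with edgeR 4.0.16 (R 4.3.3, quasi-likelihood, robust, TMM factors of 0.833 to 0.948 in Tim-4+ and 1.05 to 1.18 in Tim-4- libraries), with the pair as a block, and p-values were adjusted over 16861 genes (Benjamini-Hochberg). The SE is the log2 fold change over the square root of F. Pair numbers come from the labels. Deviations from the subset means correlated within pairs at 0.471, 0.498, 0.408 and 0.277 for pairs 793, 784, 783 and 779 and at most 0.0658 between pairs. Subtracting the subset means lowers the values between pairs where those within pairs are high, so the low values are no separate support. The fit was also run on simulated counts with the same spread for all genes, and no result here rests on that run.

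The ligands and other lists were chosen with earlier results of these data known. Every ligand is accounted for, and those called or with a mean of at least 10 CPM in either subset are given by library. Alternatives were DESeq2 size factors, total counts, DESeq2 1.42.0, no block, other count filters, lane 2 alone, other uses of the symbol-listed lane, and each pair left out. Coordinates are from GENCODE M21, promoters from RefSeq. Shared 50-base stretches were counted over annotated transcripts. Some genes of the lists are not reported here.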

Additional observations from a re-analysis of the deposited data

Results flagged for a closer look

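Among 70 groups of 4 libraries examined for a library far from the rest (23 ligands and 12 marker lists in both subsets), 1 was found. Chance flags about 1 group in 20, so 1 among 70 is not more than chance gives. The flag fell on Ccl8 in Tim-4+ TAMs. There the library of pair 783 stood at 12.6 CPM and the other 3 at 0.168, 0.460 and 1.37 CPM. The gap was 0.903 of the whole range. The Tim-4- library of the same pair was also the highest for Ccl8, at 24.5 CPM. Without pair 783 Ccl8 was among the ligands called.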

How the results depend on the processing

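The same 13 ligands were called with DESeq2 size factors, with at least 1 CPM in 4 libraries, and with the symbol-listed lane joined by symbol or left out. With no count filter 11 of them were, and with lane 2 alone 12. Total counts gave 789 genes higher and 4903 lower over all genes (13.9% higher, against 51.6% of 1512 and 1421), 12 of the 13 ligands plus Ccl6 and Ccl9, and turned Ccl2 to -0.22 and Ccl25 to -0.28. DESeq2 with the block called 2194 genes higher, 2328 lower and 12 of the 13 ligands plus Ccl9.

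With no replicate block, 147 genes were higher and 85 lower, with 2 ligands higher and 0 lower (6 and 1 at an unadjusted p under 0.05 by edgeR), 0 receptors higher (1 unadjusted) and 1 lower, and Cxcl14 turned to 0.016. Leaving out each pair gave 78 to 1573 genes higher and 54 to 1895 lower, 3 to 8 ligands higher and 0 to 5 lower, and 0 to 4 receptors higher and 2 to 4 lower. The fewest came without pair 784 (3 ligands, Ccl24, Cxcl12 and Cxcl13, with 8 higher and 6 lower unadjusted), then without pair 779 (6 ligands) and pair 793 (9), and without pair 783 there were 13, Ccl7 in place of Cxcl9. Every ligand called kept its direction under all alternatives. Uncalled ligands that turned were Ccl4 (-0.39 to 0.18, positive without pair 793, 0.16, or pair 779), Cxcl14 (-0.12 to 0.11, positive without pair 793), Ccl25 (-0.016 to 0.155, negative without pair 784), Cxcl10 (-0.23 to 0.14, positive without pair 784) and Ccl2 (-0.067 to 0.32, negative without pair 783). The causes were not tested. At these depths the 11 scarce ligands could not be compared.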
